A study of Mus musculus with 6 samples.

Results

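The B lineage genes described here were 9 genes named by symbol: *Ighm*, *Igll1*, *Cd79a*, *Cd79b*, *Vpreb1*, *Vpreb3*, *Ebf1*, *Pax5* and *Blnk*. All probe sets (groups of short oligonucleotides that report the mRNA of a gene) to which the platform annotation gave exactly 1 symbol, that of a member, were used, which made 22 of 22626 mouse probe sets. Every member had at least 1, and *Ighm* had 11. Lungs of Igf1-/- embryos, homozygous for a null allele of *Igf1*, were compared with lungs of Igf1+/+ embryos at embryonic day 18.5, with 3 arrays per genotype. Embryos of both genotypes came from matings of heterozygous mice on a C57BL/6J background. They were delivered by C-section and helped to breathe before the lungs were dissected. The paper allows that normal breathing by wild-type embryos could account for differences in some early response genes. It also proposes that these genes depend on IGF1, since reports from other settings have IGF1 inducing many of them. An effect of breathing and an effect of the allele cannot be told apart here. The allele was null in the whole embryo, so that an effect within the lung and an effect on blood cells formed elsewhere cannot be told apart. The sample descriptions mention pooled lungs and the methods describe separate RNAs, and whether an array stands for 1 embryo or a pool was not settled, so a lung or replicate below means 1 array. If the arrays of a genotype shared animals, p values measure technical spread only.

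B cells develop in steps that these genes mark. *Ebf1* and *Pax5* encode transcription factors that commit lymphoid progenitors to the B lineage. *Ighm* encodes the mu heavy chain of IgM. In pre-B cells this chain pairs with a surrogate light chain, made by *Igll1* and *Vpreb1*, and signals through the chains CD79A and CD79B to the adaptor BLNK. *Vpreb3* encodes a protein related to VPREB1 that binds mu chains inside B lineage cells. In the mouse fetus B cells are formed mainly in the liver, and B lineage cells reach other organs through the blood. *Ebf1* is also expressed in mesenchymal cells and *Blnk* in macrophages, so both can be read in a lung without B cells.

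Promoter sequences of *Igll1*, *Vpreb1*, *Vpreb3* and *Cd79a* are shown. Windows of 250 bases before to 50 after the start of transcription were taken from RefSeq on GRCm38.p6, which held 8 windows for 7 of the 9 members. The letters searched on both strands were CCCNNGGG, a core recognised by EBF1, CAGGTG, the form of the E box CANNTG preferred by E2A, and ATGCAAAT, the octamer bound by POU2F factors. Capitals mark their matches, and a match is a description of the letters and not of binding. E2A and POU2F factors are not products of member genes, and no letters of PAX5 were searched. The windows of *Igll1* (chr16:16863936-16864235, minus strand) and *Vpreb1* (chr16:16869206-16869505, minus strand) start 5270 bases apart. Those of *Vpreb3* (chr10:75948050-75948349, plus strand) and *Cd79a* (chr7:24897247-24897546, plus strand) follow.
Igll1: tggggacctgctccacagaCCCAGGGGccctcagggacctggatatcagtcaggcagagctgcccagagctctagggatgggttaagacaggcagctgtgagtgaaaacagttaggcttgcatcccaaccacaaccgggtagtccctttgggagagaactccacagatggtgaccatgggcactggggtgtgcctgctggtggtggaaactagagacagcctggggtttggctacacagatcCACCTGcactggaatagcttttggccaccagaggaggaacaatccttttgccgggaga
Vpreb1: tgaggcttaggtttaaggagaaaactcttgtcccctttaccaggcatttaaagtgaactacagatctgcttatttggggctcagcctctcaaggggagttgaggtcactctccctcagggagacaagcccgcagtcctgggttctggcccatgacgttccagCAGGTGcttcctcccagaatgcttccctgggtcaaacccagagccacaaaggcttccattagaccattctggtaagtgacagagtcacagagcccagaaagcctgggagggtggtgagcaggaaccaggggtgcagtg
Vpreb3: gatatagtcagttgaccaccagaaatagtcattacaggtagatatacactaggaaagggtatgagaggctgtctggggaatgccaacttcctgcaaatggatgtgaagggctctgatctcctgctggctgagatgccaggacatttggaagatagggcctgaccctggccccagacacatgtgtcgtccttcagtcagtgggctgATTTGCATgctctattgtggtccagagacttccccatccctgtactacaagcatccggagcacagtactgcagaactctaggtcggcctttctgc
Cd79a: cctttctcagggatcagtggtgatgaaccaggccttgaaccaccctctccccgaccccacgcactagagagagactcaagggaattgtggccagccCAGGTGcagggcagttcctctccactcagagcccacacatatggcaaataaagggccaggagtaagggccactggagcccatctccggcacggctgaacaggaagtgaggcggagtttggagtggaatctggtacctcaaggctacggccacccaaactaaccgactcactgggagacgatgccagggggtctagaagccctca

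The EBF1 core was found in 1 of the 8 member windows, that of *Igll1*, and in 13.7% of 32851 windows of all genes. CAGGTG was found in 4 member windows (*Igll1*, *Vpreb1*, *Cd79a* and *Blnk*) and in 20.2% of all windows, while CANNTG in any form was found in 7 of 8 and in 72.3%. The octamer was found in the windows of *Vpreb3* and *Blnk* and in 1.74% of all windows. *Ebf1*, with 2 windows, and *Pax5* held none of the marked letters.

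Among the B lineage genes, *Ighm* was the 1 member that rose in the Igf1-/- lungs, at 1 of its 11 probe sets, and no member fell. Rising or falling here means an adjusted p under 0.10 in limma, with the Benjamini-Hochberg adjustment taken over every mouse probe set. The share of all mouse probe sets that rose was 0.164%, and the share that rose or fell was 0.557%. Of the 22 member probe sets, 17 had a higher mean in the Igf1-/- lungs, beside 58.2% of all probe sets. With the 6 arrays quantile normalized again the count was 12 of 22, and with arrays centred on their medians it was 19. The median log2 difference (Igf1-/- mean minus Igf1+/+ mean) was 0.05 over the member probe sets and 0.03 over all.

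Levels are given as log2 RMA expression values, which come with no call of presence. Member values ran from 3.70 to 7.67, and 20 of the 22 member probe sets had a mean under the median of all mouse probe sets. Among them 11 lay under the 25th percentile, 7 of these being probe sets of *Ighm*. *Pax5*, *Vpreb1* and *Blnk*, each read at a single probe set, lay at percentiles 11.3, 13.2 and 9.70 of all levels. Whether such dim values were above background cannot be told from these data. The array medians lay between 6.85 and 6.89, and the correlation between arrays between 0.992 and 0.996. *Igf1* itself was lower in the Igf1-/- lungs at all 3 of its probe sets, by 0.42 to 0.58 on the log2 scale, none of them with an adjusted p under 0.10 (0.152 to 0.327), and the groups did not overlap at 1 of them. Where these probe sets lie relative to the deleted part was not known here, and they were not taken as a check of the labels.

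The heavy chain gene *Ighm* was read by probe sets of quite different brightness. The suffixes of their names tell what their oligonucleotides match: _a_at several transcripts of a gene, _s_at transcripts of several genes, and _x_at also other sequences in part. Probe set 1427351_s_at had values of 6.73, 6.38 and 6.69 in Igf1-/- lungs against 5.90, 5.90 and 6.06 in Igf1+/+ lungs. All 3 Igf1-/- values lay above the 3 Igf1+/+ values. At 1427351_s_at *Ighm* rose, with a log2 difference of 0.65 (SE 0.11, limma adjusted p = 0.0649, n = 3 arrays of each genotype), which is 1.57-fold (95% interval 1.32 to 1.85).

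Probe set 1427329_a_at of *Ighm* had 6.11, 5.95 and 6.21 in Igf1-/- lungs against 5.50, 4.99 and 5.68 in Igf1+/+ lungs. Here too the groups did not overlap, with Igf1+/+ replicate 2 well below the other Igf1+/+ lungs. The log2 difference was 0.70 (SE 0.16, limma adjusted p = 0.146), or 1.62-fold (95% interval 1.26 to 2.10), which did not pass. At this probe set the SD was 0.13 among the Igf1-/- lungs and 0.36 among the Igf1+/+ lungs, whereas at 1427351_s_at it was 0.19 and 0.10.

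The brightest *Ighm* probe set, 1427870_x_at, had 7.57, 7.67 and 7.60 in Igf1-/- lungs against 7.29, 7.43 and 7.61 in Igf1+/+ lungs. Igf1+/+ replicate 3 reached the Igf1-/- values, so the groups overlapped, and the log2 difference was 0.17 (SE 0.09, limma adjusted p = 0.478). Probe set 1452535_at had 5.49, 5.66 and 5.29 against 5.11, 5.30 and 5.27, with a log2 difference of 0.25 (SE 0.11, limma adjusted p = 0.386). The groups overlapped there as well, since Igf1-/- replicate 3 lay below Igf1+/+ replicate 2.

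The 7 dimmer *Ighm* probe sets gave log2 differences between -0.07 and 0.10, with 4 above and 3 below zero, and their groups overlapped at each. All 7 lay under the 25th percentile of level. The 4 brightest all had a higher mean in the Igf1-/- lungs, and 3 of these had an unadjusted p under 0.05, as had 6.27% of all mouse probe sets in that direction. The *Ighm* increase was thus read at some of its probe sets and not at most, and the segment of the heavy chain that each covers was not known here. A further 4 probe sets name *Ighm* beside variable or gamma heavy chain genes and were not counted as members. Their log2 differences ran from -0.02 to 0.09, with overlapping groups.

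**Figure D1:**
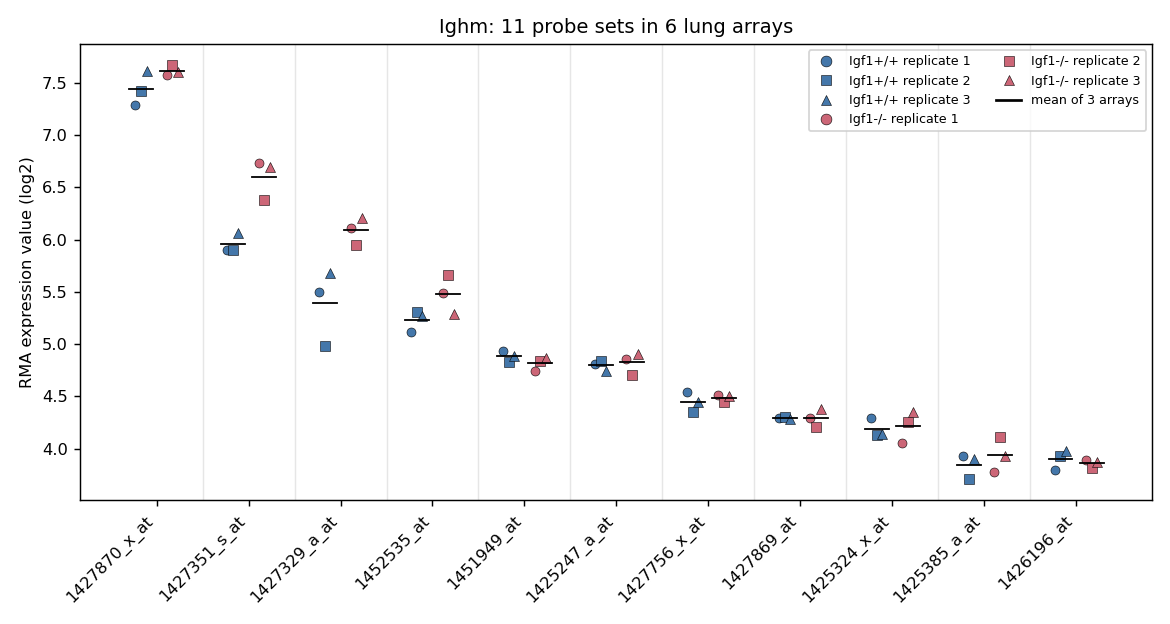
RMA expression values (log2) of the 11 *Ighm* probe sets in each of 3 Igf1+/+ and 3 Igf1-/- lungs, ordered by mean, with a line at the mean of each genotype. At 1427351_s_at and 1427329_a_at all Igf1-/- values lie above the Igf1+/+ values, and at the other 9 probe sets the groups overlap.

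The call of *Ighm* at 1427351_s_at was lost when any 1 of 4 arrays was left out, whereas its log2 difference stayed between 0.58 and 0.76 when each array was left out in turn. The call held when Igf1-/- replicate 2 (adjusted p = 0.0428) or Igf1+/+ replicate 3 (0.0468) was the array left out. It did not pass without Igf1-/- replicate 1 (0.196) or 3 (0.250), nor without Igf1+/+ replicate 1 (0.214) or 2 (0.167). Without Igf1+/+ replicate 3 the second *Ighm* probe set, 1427329_a_at, also rose, by 0.85 (adjusted p = 0.0550). In a 3 against 3 comparison of single values the smallest exact permutation p is 0.1, so no member could pass 0.05 in such a test.

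No surrogate light chain gene passed with all 6 arrays. *Igll1*, which encodes its lambda5 part, had 6.60, 6.61 and 6.69 in Igf1-/- lungs against 6.22, 6.34 and 6.52 in Igf1+/+ lungs at 1420176_x_at. The groups did not overlap, and the log2 difference was 0.27 (SE 0.09, limma adjusted p = 0.283), or 1.21-fold (95% interval 1.05 to 1.39). It passed when Igf1+/+ replicate 3, the highest of the control lungs, was left out (0.35, adjusted p = 0.0988). So did 3.14% of all mouse probe sets. At the dimmer probe set of *Igll1*, 1420177_at, the values were 4.37, 4.41 and 4.28 against 4.27, 4.19 and 4.45, with Igf1+/+ replicate 3 the highest of all (log2 difference 0.05, adjusted p = 0.849).

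*Vpreb1*, whose product completes the surrogate light chain, had 4.21, 4.25 and 4.26 in Igf1-/- lungs against 4.20, 4.14 and 4.30 in Igf1+/+ lungs. The groups overlapped, with a log2 difference of 0.02 (95% interval -0.15 to 0.19, limma adjusted p = 0.915). A probe set that names *Vpreb2* beside *Vpreb1* was not a member. It had 5.13, 5.16 and 5.13 in Igf1-/- lungs against 4.95, 4.93 and 5.07 in Igf1+/+ lungs. The groups did not overlap at that probe set, which had a log2 difference of 0.16 (adjusted p = 0.416).

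*Vpreb3* had 5.75, 5.69 and 5.69 in Igf1-/- lungs against 5.47, 5.47 and 5.71 in Igf1+/+ lungs. Igf1+/+ replicate 3 lay within the Igf1-/- range, and the log2 difference was 0.16 (SE 0.09, limma adjusted p = 0.475). In the Igf1+/+ lungs replicate 3 was thus the highest at both *Igll1* probe sets and at those of *Vpreb1* and *Vpreb3*. Over all 22 member probe sets, Igf1+/+ replicate 3 was the highest of its genotype at 9 and the lowest at 6.

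The signalling chains of the receptor did not pass either. *Cd79a* had 4.98, 5.04 and 5.14 in Igf1-/- lungs against 4.85, 5.02 and 4.76 in Igf1+/+ lungs. The groups overlapped by a single array, Igf1+/+ replicate 2, and the log2 difference was 0.18 (SE 0.09, limma adjusted p = 0.448). *Cd79b* had 6.50, 6.93 and 6.74 against 6.48, 6.72 and 6.53, with a log2 difference of 0.15 (SE 0.12, limma adjusted p = 0.632). The Igf1-/- lungs spread over nearly the whole range of this gene. *Blnk*, the adaptor downstream of both chains, had 4.25, 4.14 and 3.88 against 4.10, 3.93 and 3.98 (log2 difference 0.09, adjusted p = 0.759), the lowest and the highest value both being from Igf1-/- lungs.

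Neither transcription factor gene passed at any probe set. *Ebf1* had 6.81, 7.09 and 7.24 in Igf1-/- lungs against 7.46, 7.33 and 6.73 in Igf1+/+ lungs at its brightest probe set, 1416301_a_at. The log2 difference was -0.12 (95% interval -0.54 to 0.30, limma adjusted p = 0.816), and without Igf1+/+ replicate 1 it was 0.02. At 1416302_at and 1448293_at the log2 differences were 0.03 and -0.01. At each of the 3 *Ebf1* probe sets, Igf1-/- replicate 1 was the lowest of the Igf1-/- lungs and Igf1+/+ replicate 3 the lowest of the Igf1+/+ lungs. The SD within genotypes at 1416301_a_at was 0.31 on the log2 scale, larger than that of 98.1% of mouse probe sets. *Pax5* had 4.07, 4.11 and 4.22 against 4.13, 4.08 and 4.16, with a log2 difference of 0.01 (95% interval -0.16 to 0.18, adjusted p = 0.965).

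**Figure D2:**
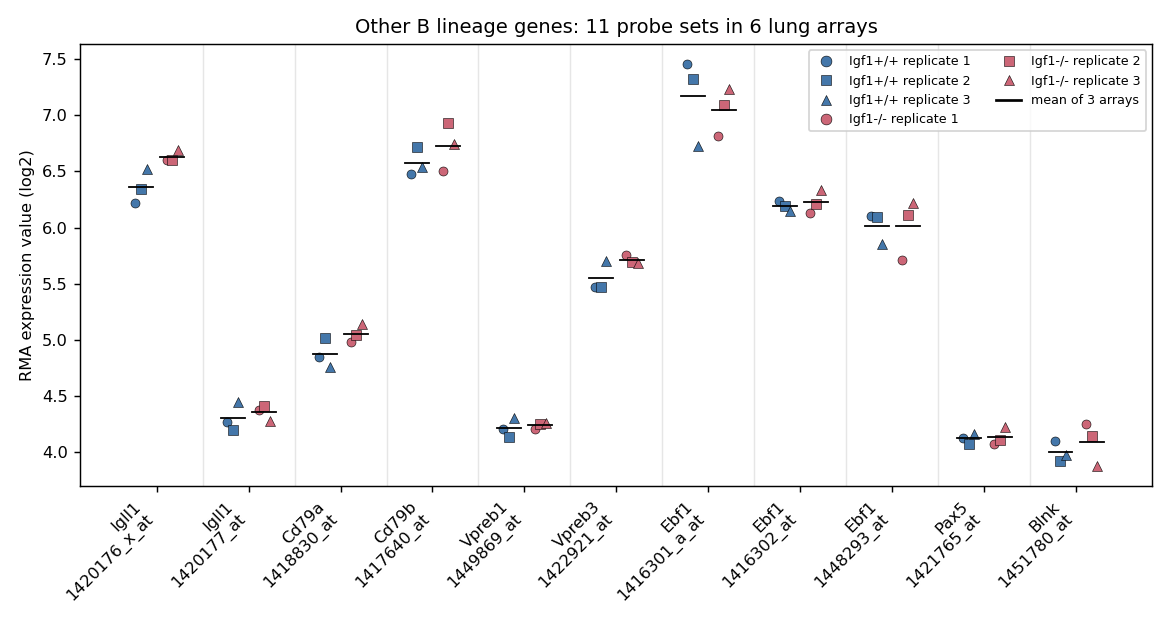
RMA expression values (log2) of the 11 probe sets of the other 8 members in each of 3 Igf1+/+ and 3 Igf1-/- lungs, with a line at the mean of each genotype. The groups are apart only at *Igll1* 1420176_x_at, and Igf1+/+ replicate 3 (blue triangles) is low at *Ebf1* and high at *Igll1*, *Vpreb1* and *Vpreb3*.

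**Figure D3:**
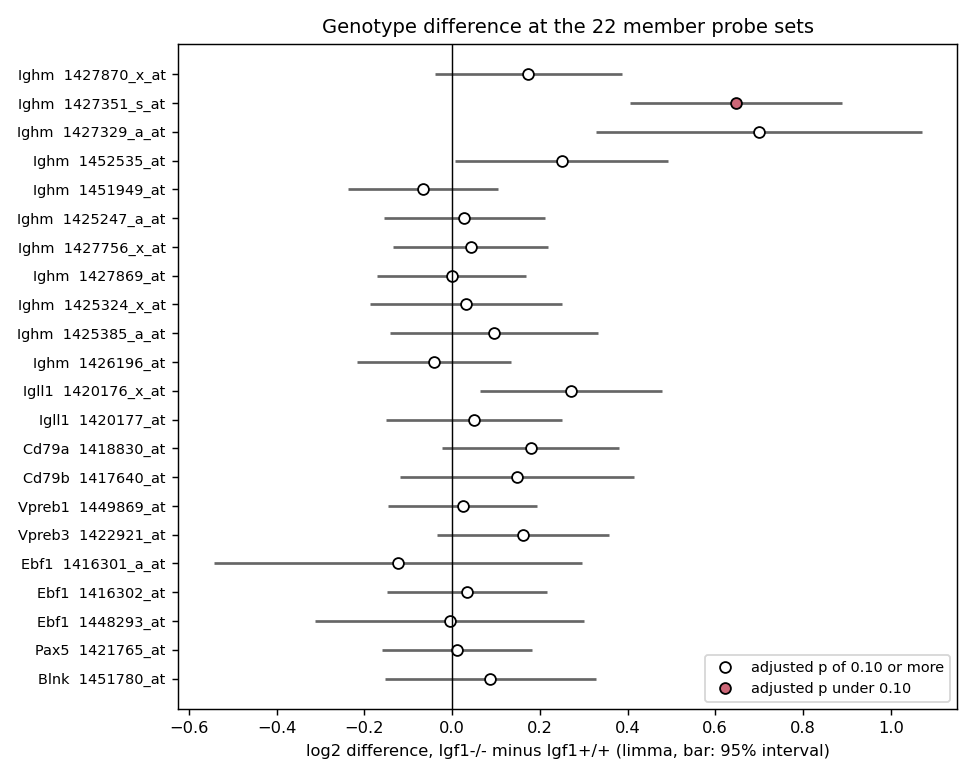
Log2 differences (Igf1-/- minus Igf1+/+) with 95% intervals from limma at the 22 member probe sets. The filled point, *Ighm* 1427351_s_at at 0.65, is the 1 with an adjusted p under 0.10, and the intervals of 18 probe sets include zero.

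Groups of the 2 genotypes did not overlap at 3 of the 22 member probe sets, with the Igf1-/- lungs higher at each, beside 10.8% of all mouse probe sets in that direction. None of the members had lower Igf1-/- values without overlap, as 7.26% of all probe sets had. The 3 were both *Ighm* probe sets above and *Igll1* 1420176_x_at. At the brightest probe set of each gene, 8 of the 9 members had a higher mean in the Igf1-/- lungs, the exception being *Ebf1*. At these probe sets 0 members were called in limma and 1, *Igll1*, had an unadjusted p under 0.05. In whole lungs, a difference in the number of cells of a type and one in RNA per cell cannot be told apart.

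**Figure D4:**
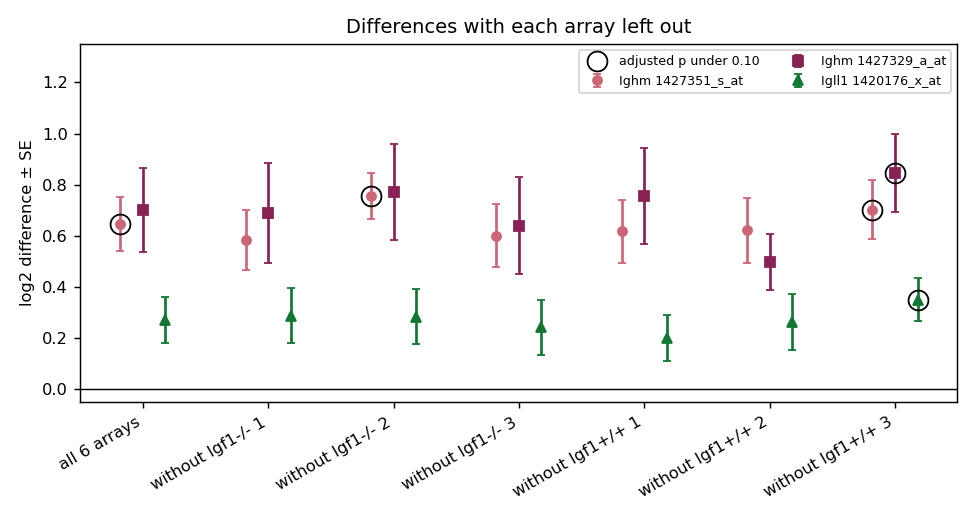
Log2 differences (Igf1-/- minus Igf1+/+) ± SE of 3 member probe sets with all 6 arrays and with each array left out, rings marking an adjusted p under 0.10. *Ighm* 1427351_s_at stays between 0.58 and 0.76. Without Igf1+/+ replicate 3 all 3 probe sets pass, as do 3.14% of all mouse probe sets, beside 0.557% with all 6 arrays.

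Immunoglobulin genes other than members were read at 31 probe sets with a single symbol. Of these 27 had a higher mean in the Igf1-/- lungs, beside 58.2% of all mouse probe sets. In limma 0 were called and 1 had an unadjusted p under 0.05. Their levels were dim, from percentile 0.217 to 37.5 of all probe sets. Their median log2 difference was 0.08. The groups did not overlap at 8, of which 7 were higher in the Igf1-/- lungs. *Ighg3* and *Igha*, constant regions of IgG3 and IgA, and a probe set of the kappa segment *Igkv19-93* were the brightest genes, with log2 differences of 0.02, 0.10 and 0.17. Another 3 probe sets, named after their values were seen, list the kappa constant region *Igkc* beside variable segments. Their log2 differences were 0.40 (adjusted p = 0.143), 0.50 (0.235) and 0.33 (0.364), and the groups did not overlap at the first 2. The kappa chain is the light chain that most mouse B cells put beside the mu chain.

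Other genes of the B lineage came from lists of transcription factors and recombination genes, surface receptors, receptor signalling and plasma cells. None of them rose or fell. Of 29 probe sets of 16 transcription and recombination genes, 20 were higher and 9 lower, with 0 called in limma, 1 at an unadjusted p under 0.05 and a median log2 difference of 0.07. The brightest were *Bach2* (-0.02), *Foxo1* (0.11) and *Tcf3*, which encodes E2A (0.16). The 1 at an unadjusted p under 0.05 was a probe set of *Myb*, a factor of blood progenitors (0.26, adjusted p = 0.376), whose other probe sets had -0.0075 and 0.16. *Irf8*, a factor of B and myeloid cells, had lower Igf1-/- values without overlap at both its probe sets (-0.27 and -0.23, adjusted p = 0.442 at each). *Rag1* and *Rag2*, which cut DNA at immunoglobulin segments, had log2 differences of -0.04 and 0.12, and *Dntt*, which adds bases at the joints, had 0.12 to 0.17. The levels of *Rag1* lay at percentile 4.81 of all probe sets.

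Surface genes had 21 of 25 probe sets higher in the Igf1-/- lungs, with 0 called in limma, 2 at an unadjusted p under 0.05 and a median log2 difference of 0.10. Those 2 were *Il7r*, the receptor for the cytokine that B progenitors need (0.27, adjusted p = 0.303), and *Cd22*, an inhibitory coreceptor (0.21, adjusted p = 0.366). The other probe sets of *Il7r* and *Cd22* had 0.05 and 0.10. Even the brighter *Il7r* probe set lay at percentile 15 of level. *Cd24a*, *Cd40* and *Flt3* were the brightest, with log2 differences of 0.08, 0.02 and 0.11 at their brightest probe sets. *Ms4a1*, which encodes CD20 of mature B cells, had 0.14 and -0.07, at percentiles 14.3 and 0.614 of level.

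Signal transducers downstream of the receptor had 16 of 27 probe sets higher, with 0 called in limma and 5 at an unadjusted p under 0.05. Those 5 belonged to *Fcgr2b*, an inhibitory Fc receptor that myeloid cells also express, with log2 differences of 0.26 and 0.34, to *Prkcb*, a protein kinase C, with 0.24 and 0.34, and to *Plcg2*, a phospholipase, with 0.30. Their adjusted p ran from 0.206 to 0.347. *Cd81*, *Ptpn6* and *Bcl10* were the brightest and had differences of -0.00, -0.02 and -0.09. Plasma cell genes had 10 of 13 probe sets higher, 0 called and 2 at an unadjusted p under 0.05. These were *Tnfrsf17*, a receptor of plasma cells (0.18), and *Sdc1*, which epithelium also expresses, at its brightest probe set (0.25). *Xbp1* and *Prdm1*, the other bright genes of this list, had 0.04 and -0.04.

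Cytokines that B progenitors depend on went in both directions, with 5 of 12 probe sets higher and 7 lower. At an unadjusted p under 0.05, 1 was higher, of *Cxcl12*, and 3 were lower, all of *Kitl*. *Kitl*, the ligand of the receptor KIT on blood progenitors, fell at 1 of its 4 probe sets, with values of 5.17, 5.24 and 5.03 in Igf1-/- lungs against 6.20, 5.74 and 5.77 in Igf1+/+ lungs. The groups did not overlap, and the log2 difference was -0.75 (SE 0.13, limma adjusted p = 0.0673). At its brightest probe set it was -0.52 (adjusted p = 0.129). *Cxcl12*, a chemokine that retains B progenitors, had 0.23 (adjusted p = 0.409) at its brightest probe set. Its other probe set had 0.20 (adjusted p = 0.386), with groups that did not overlap. *Tslp* had -0.27 (adjusted p = 0.534). *Il7* had -0.15 and 0.06.

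**Figure D5:**
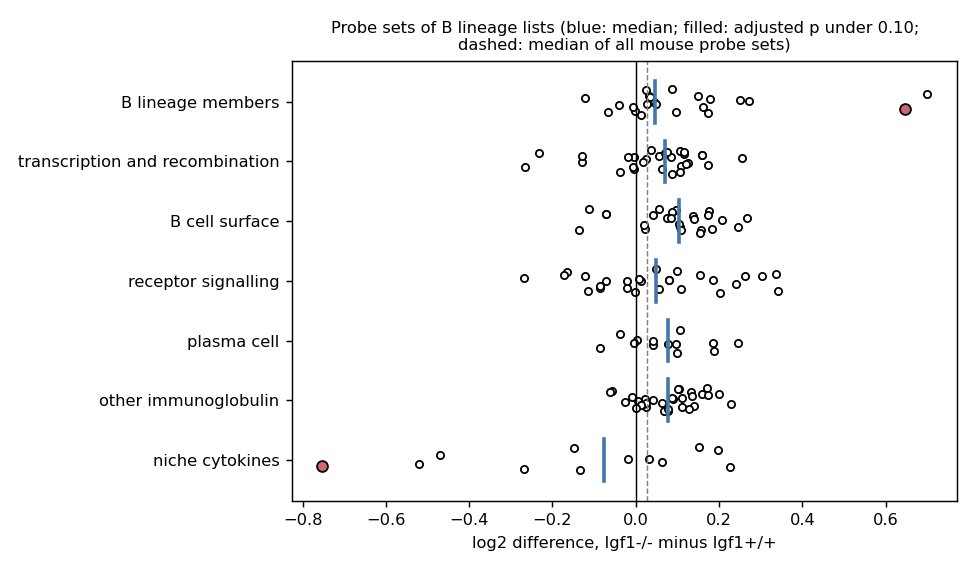
Log2 differences (Igf1-/- minus Igf1+/+) of the probe sets in the member group and in 6 other lists, with the median of each list (blue), zero (solid) and the median of all mouse probe sets, 0.03 (dashed). Filled points passed an adjusted p of 0.10: *Ighm* among the members and *Kitl* among the niche cytokines.

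Among lists of markers of other cells, some held called genes, and those of mesenchyme, T cells, MHC class II and macrophages held none. Of all mouse probe sets 58.2% had a higher mean in the Igf1-/- lungs and 0.557% were called. An unadjusted p under 0.05 with a higher mean was found at 6.27%. Lung epithelial markers had summed linear levels (2 to the power of the value, over the brightest probe set of each gene) of 40622 to 46336 in the Igf1-/- lungs and 41733 to 46467 in the Igf1+/+ lungs, sums to which the bright surfactant genes contribute most. Of their 12 probe sets 8 were higher and 4 lower, and *Aqp5*, a water channel of alveolar type I cells, fell (log2 difference -0.98, adjusted p = 0.0173). At an unadjusted p under 0.05, 3 were higher (*Sftpb*, *Sftpa1* and *Foxj1*) and 3 lower (*Aqp5*, *Sftpd* and *Pdpn*). Mesenchyme markers had 8 of 19 probe sets higher, 0 called and 3 at an unadjusted p under 0.05, with sums of 28452 to 32541 against 28923 to 31047. Of 15 probe sets of pan-leukocyte genes 13 were higher, 8 of them at an unadjusted p under 0.05. Among these 2 rose, those of *Rac2* and *Cd52*. The summed level was 3369 to 3841 in the Igf1-/- lungs and 3031 to 3246 in the Igf1+/+ lungs. T cell markers had 16 of 18 probe sets higher, 0 called and 4 at an unadjusted p under 0.05, with sums of 738 to 749 against 624 to 724. NK cell markers had 8 of 10 higher, 4 of them at an unadjusted p under 0.05. *Gzma* rose, and the sums were 410 to 536 against 315 to 357. Neutrophil granule genes had 12 of 13 higher, with *Camp* and *Cd177* rising and *Lcn2* falling. At an unadjusted p under 0.05, 12 were higher and 1 lower. Their sums were 3213 to 4543 against 2663 to 2762. MHC class II genes, which B cells share with macrophages and dendritic cells, had 9 of 11 higher, 0 called and 8 at an unadjusted p under 0.05, with sums of 799 to 902 against 617 to 687. Macrophage markers had 17 of 21 higher, 0 called and 8 at an unadjusted p under 0.05, with sums of 8192 to 10492 against 8553 to 10962. The brightest of them, *Lyz2*, contributes most to these sums and had a log2 difference of -0.33 (adjusted p = 0.466). Macrophage groups did not overlap at 9 probe sets, all higher in the Igf1-/- lungs, beside 10.8% of all mouse probe sets. Erythroid markers had 8 of 12 probe sets lower, 3 of them at an unadjusted p under 0.05. *Slc4a1* and *Alas2* fell, and the sums were 3559 to 4018 against 4551 to 4878. The part of these cells in the *Ighm* increase was not tested.

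Organs next to the lung were read through their own markers. Of 15 probe sets of thymus markers, among them *Rag1*, *Rag2* and *Dntt*, 13 were higher, 0 were called and 1 had an unadjusted p under 0.05, with summed levels of 314 to 352 in the Igf1-/- lungs and 293 to 320 in the Igf1+/+ lungs. Fetal liver, where B cells are formed, was read through 8 hepatocyte markers whose summed level came to 394, 3287 and 544 for Igf1-/- replicates 1 to 3, against 739, 310 and 865 for Igf1+/+ replicates 1 to 3. Igf1-/- replicate 2 stood far above the other lungs. In that lung *Ighm* had its lowest Igf1-/- value at 1427351_s_at (6.38) and 1427329_a_at (5.95). At 1427870_x_at (7.67) and 1452535_at (5.66) it had its highest there. Without that lung the *Ighm* difference at 1427351_s_at was 0.76 (limma adjusted p = 0.0428). The part of liver tissue in the *Ighm* values was not tested. Of the 17 hepatocyte probe sets 15 were higher in the Igf1-/- lungs and 0 had an unadjusted p under 0.05.

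Likeness over the 6 arrays was computed for *Ighm* and *Igll1*, each at its brightest probe set. Among 2836 probe sets with 1 symbol, no member gene and an SD of at least 0.2, a minimum that most probe sets did not reach, those most like *Ighm* were *Urm1*, *Btc* and *Serpinh1*, with a Pearson r of 0.996, 0.995 and 0.992. For *Igll1* they were *Pa2g4*, *2410002F23Rik* and *Mdn1*, with 0.995, 0.994 and 0.992. With 6 points and so many candidates, r values of this size describe the arrays and carry no test. None of these 6 genes passed an adjusted p of 0.10 (0.252 to 0.375).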

How the data were processed

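RNA of whole lungs was measured on Affymetrix mouse arrays, 3 per genotype. The deposited log2 values are the authors' RMA output: background was corrected, arrays were quantile normalized and probes summarised by median polish. All 12 arrays were processed together, and the 6 cochlear ones were not used here. RMA can pull dim probe sets together. Genotypes and replicate numbers came from the sample titles.

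After 64 control probe sets were left out, limma 3.58.1 in R 4.3.3 was fitted to 22626 mouse probe sets with genotype as the only term. Adjusted p values follow Benjamini and Hochberg over this whole table. The SAM statistic of the study's methods was an alternative, with its FDR from its permutations of the labels. The code was tested on simulated data. Precision is limited by the number of arrays.

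Symbols came from the platform annotation, in which 20380 probe sets have 1 symbol. Members, lists and tests were chosen with earlier results of these data known. Named genes were every member, from other B lineage lists every gene that passed at any probe set and the 3 brightest, and genes most like *Ighm* and *Igll1*. Of other lists those that passed are named. Further names were added after their values were seen: the *Igkc* probe sets, list genes at an unadjusted p under 0.05, and *Rag1*, *Rag2*, *Dntt*, *Irf8*, *Ms4a1* and *Il7*.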

Additional observations from a re-analysis of the deposited data

How the results depend on the processing

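Of the 22 member probe sets, *Ighm* 1427351_s_at kept its direction under every alternative run on it. It stayed under an adjusted p of 0.10 with the replicate number as a block, under quantile normalization, array centring, a variance trend, array weights, control probe sets kept and the SAM statistic (0.0190 to 0.0773). It lost the call when means were compared without moderation (0.384), and it could not be fitted with dim probe sets left out, since it lay under the median level. The count of member probe sets called, 1, became 2 with the replicate block, with array weights and at an adjusted p under 0.20, and 0 with dim probe sets left out (2 members tested), without moderation and at 0.05. The share of all tested probe sets called was 0.557% in the main fit. It was 0.61% with the replicate block, 2.78% with array weights, 1.18% with dim probe sets left out and 0.00442% without moderation. With single arrays left out the member count ranged from 0 to 3, and the share of all probe sets from 0.199% to 3.14%. *Kitl* passed at 1 probe set and at 0 when only brightest probe sets were counted.

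The sample titles do not say whether replicate numbers pair the samples. Deviations from the genotype means had correlations of -0.04, -0.23 and -0.14 between lungs of the same number. These values cannot settle whether the lungs were paired, for want of a comparison with lungs of different numbers. With the replicate block *Ighm* 1427329_a_at also passed (0.70, adjusted p = 0.0667), as it did with array weights (0.89, adjusted p = 0.0427). The weights ran from 0.513 for Igf1+/+ replicate 3 to 2.03 for Igf1+/+ replicate 2.

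Differences near zero changed sign. Quantile normalization gave -0.030 for *Ighm* 1425247_a_at, -0.0088 for 1427756_x_at, -0.017 for 1425324_x_at, -0.023 for *Vpreb1* and -0.034 for *Pax5*. Centring gave 0.0053 for *Ighm* 1427869_at and 0.00050 for *Ebf1* 1448293_at, and array weights gave 0.0079 for *Ighm* 1427869_at. With single arrays left out, the ranges were -0.014 to 0.086, -0.0045 to 0.091, -0.035 to 0.12 and -0.046 to 0.042 for *Ighm* 1425247_a_at, 1427756_x_at, 1425324_x_at and 1427869_at, -0.014 to 0.068 for *Vpreb1*, -0.034 to 0.042 for *Pax5*, -0.0063 to 0.12 for *Igll1* 1420177_at, and -0.34 to 0.020, -0.022 to 0.083 and -0.11 to 0.15 for *Ebf1* 1416301_a_at, 1416302_at and 1448293_at. The causes were not tested.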
